A study of Rattus norvegicus with 6 samples.

Results

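Heart primordia of rat embryos carry transcripts of proteins that the yolk sac and visceral endoderm make and secrete or use for uptake, and 10 such genes are described here among 12707 genes with a tested probe. They were chosen by name. Ttr, Rbp4 and Afp encode carriers, Apoa1, Apoa4, Apob and Apoc2 encode apolipoproteins, Amn and Cubn encode the parts of an uptake receptor, and Cer1 encodes a secreted antagonist. The array of 30367 probes held 11 probes of these genes, with 2 for Cer1 and 1 for each of the other 9 genes. For 9 genes the name on the array was the member's own. Cer1 stood there under the older symbol RGD1563046 and was found through its transcript. All 10 genes stood well above background on every one of the 6 arrays, 0 of their spots were saturated and 1 spot was left out as an outlier.

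RNA of the heart primordium, the crescent of tissue that forms the heart tube, was taken on embryonic day 10 from Wistar rat embryos (spelled Wister in the labels), with no treatment given. The pre-heartbeat group held 3 samples of primordia with a flat centre, defined as before contraction began. The post-heartbeat group held 3 samples of primordia with a raised centre, defined as after it began. The paper set the groups by shape and somite number, with more somites in the post-heartbeat group and some overlap. It based this split on earlier ex vivo studies, so heartbeat and developmental stage cannot be told apart here. Each sample was hybridised to 1 array of a 1-colour Agilent design. Slide 1 held pre-heartbeat replicate 1 (pre 1) and post-heartbeat replicates 1 and 2 (post 1 and post 2), and slide 2 held pre 2, pre 3 and post 3. The primordia were cut out of the embryo under a microscope, so a sample can hold any tissue that stayed attached, and the sources used here do not give how many embryos or litters made up a sample. The p-values below measure the spread between these samples only.

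Visceral endoderm is the epithelium that surrounds the early rodent embryo and lines the yolk sac. It takes up maternal nutrients and, before the liver forms, makes many of the plasma proteins that the liver makes later. Lipoproteins built on apolipoprotein B carry lipid from this epithelium to the embryo, and a receptor of cubilin and amnionless on its surface binds proteins for endocytosis. At the anterior side of the embryo a part of the visceral endoderm, and later the anterior definitive endoderm, secretes Cerberus, which binds Nodal and other ligands outside the cell. Definitive gut endoderm, which lies beneath the heart primordium, also expresses some of these genes, such as Ttr.

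The bases just before the transcription start are shown for the members with the letters of a TATA box or a FOXA motif. Sequences are from RefSeq on GRCr8, and 8 of the 10 genes were matched. Motifs were searched on both strands. They were TGTTTAC and its variant TGTTTGC for FOXA, AGATAA for GATA, and TATAAA for the TATA box. Capitals mark the matches. Afp lies at chr14:17875646-17875895 on the minus strand, Apoc2 at chr1:88462366-88462615 on the minus strand, Rbp4 at chr1:245313552-245313801 on the minus strand and Cer1 at chr5:102355721-102355970 on the minus strand, each given as the 250 bases before its start, 5′ to 3′.
Afp: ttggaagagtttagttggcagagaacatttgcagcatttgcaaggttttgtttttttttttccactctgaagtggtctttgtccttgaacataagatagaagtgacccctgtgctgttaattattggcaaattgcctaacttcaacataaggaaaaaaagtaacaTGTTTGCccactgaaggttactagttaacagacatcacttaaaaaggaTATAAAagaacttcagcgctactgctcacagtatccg
Apoc2: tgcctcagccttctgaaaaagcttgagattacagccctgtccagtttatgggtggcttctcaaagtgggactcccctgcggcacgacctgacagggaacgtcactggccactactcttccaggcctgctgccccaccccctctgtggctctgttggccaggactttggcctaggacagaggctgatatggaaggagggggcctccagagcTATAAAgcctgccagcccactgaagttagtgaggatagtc
Rbp4: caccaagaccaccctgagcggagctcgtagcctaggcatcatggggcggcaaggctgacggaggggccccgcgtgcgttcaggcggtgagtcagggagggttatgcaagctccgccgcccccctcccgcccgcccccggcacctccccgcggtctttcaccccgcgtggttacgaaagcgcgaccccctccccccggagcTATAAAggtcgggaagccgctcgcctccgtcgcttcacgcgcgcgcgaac
Cer1: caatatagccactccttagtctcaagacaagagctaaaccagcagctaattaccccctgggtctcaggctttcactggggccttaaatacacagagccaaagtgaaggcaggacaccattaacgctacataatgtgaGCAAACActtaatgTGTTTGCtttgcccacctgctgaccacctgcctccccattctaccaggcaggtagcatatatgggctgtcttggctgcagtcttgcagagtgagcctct
TATAAA was found in Afp, Apoc2 and Rbp4, beginning 37, 40 and 50 bases before the start, and in 12.9% of 33469 promoters of this length. A FOXA match was found in Afp and Cer1, 85 bases before the start in Afp and 113 and 99 bases before it in Cer1, and in 7.20% of all promoters. AGATAA was found in Cubn alone among the 8 members, 195 bases before its start, and in 10.3% of all promoters. Ttr, Apoa4 and Amn held 0 matches in this window. Apoa4, Amn and Cubn thus lacked TATAAA, although they and Afp, Apoc2 and Rbp4 are among the 8 genes that share the course described below. A match says only that these letters are present.

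The transcripts of 8 members shared their highest array and their lowest 2 arrays, a course that crossed the groups. These were the carriers Rbp4 and Afp, the apolipoproteins Apoa1, Apoa4, Apob and Apoc2, and the receptor genes Amn and Cubn, grouped here after their values had been seen. Each had its highest signal on pre 1 and its lowest 2 signals on pre 2 and post 3. Of all 19299 tested probes, 3.56% had this order, which was read off the members' own values and is given as a description. From the highest to the lowest array the 8 genes spanned 1.12 to 3.23 on the log2 scale, or 2.17- to 9.37-fold, and each span was wider than that of 80.2% or more of the tested probes, whose median span was 0.65. Ttr and Cer1 did not follow this course. Signals below are normalised log2 signals, in which 0 is the 75th percentile of all spots of the array, and values of different probes cannot be set against each other.

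**Figure D1:**
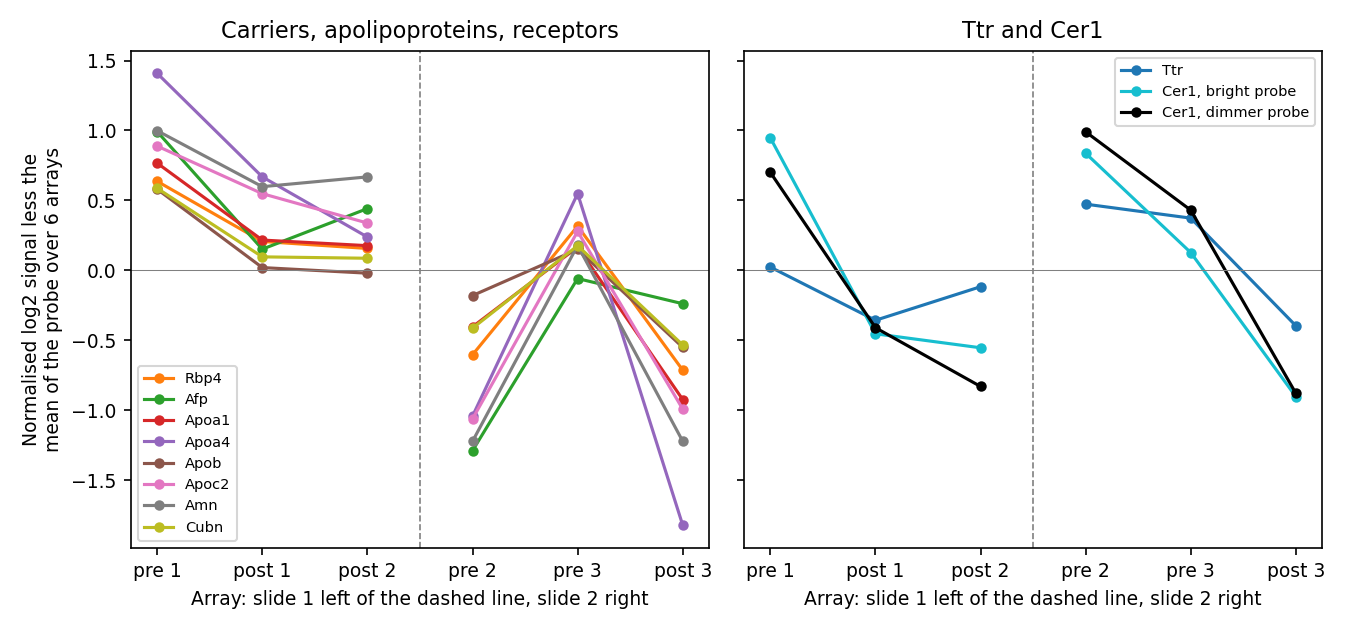
Normalised log2 signal of each member less its mean over the 6 arrays (vertical axis), by array, with slide 1 left and slide 2 right of the dashed line. The 8 genes on the left were all highest on pre 1 and lowest on pre 2 and post 3, and on the right Ttr and both probes of Cer1 were lower on every post-heartbeat array than on every pre-heartbeat array.

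Amnionless, encoded by Amn, carries cubilin to the cell surface and anchors it in the membrane. Amn had signals of -1.49, -3.71 and -2.31 on pre 1, pre 2 and pre 3, and of -1.89, -1.82 and -3.71 on post 1, post 2 and post 3. All 3 arrays of slide 1 were above all 3 arrays of slide 2, and each group held high and low arrays. Between the groups the means of -2.51 ± 1.1 and -2.47 ± 1.1 (SD, n = 3) differed by 0.03 (95% interval -1.59 to 1.66, limma adjusted p = 0.991). With the group held fixed, Amn was lower on slide 2 by a log2 difference of -1.69 (SE 0.33, limma adjusted p = 0.0151), or 3.23-fold. Its array probe was spotted 10 times on each array and maps to chr6:136038513-136038572 on rn4, the build of all probe positions given here. Each probe is 60 bases long and lies within the mature transcript of its gene, as the array annotation gives it.

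Cubilin, the ligand-binding subunit encoded by Cubn, moved over a narrower range, with its highest and lowest signals on the same arrays. Its signals were 0.10, -0.90 and -0.31 in the pre-heartbeat group and -0.39, -0.40 and -1.02 in the post-heartbeat group. Pre 3, on slide 2, was above both post-heartbeat arrays of slide 1, so the slides overlapped. Its probe lies at chr17:87546312-87546371. The slide difference was -0.66 (SE 0.18, limma adjusted p = 0.0427) and the group difference -0.23 (95% interval -0.93 to 0.47, adjusted p = 0.866). Both subunits of the receptor were thus lower on slide 2, and neither passed the test between the groups.

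The widest span was that of an apolipoprotein. Apolipoprotein A-IV, a component of lipoproteins secreted by intestine and yolk sac, is encoded by Apoa4, whose signals were 0.47, -1.98 and -0.39 in the pre-heartbeat group and -0.27, -0.70 and -2.76 in the post-heartbeat group. The probe lies at chr8:49233335-49233394. Pre 1 was the highest and post 3 the lowest, 9.37-fold apart. Its slide difference was -1.96 (SE 0.39, limma adjusted p = 0.0157), or 3.90-fold lower on slide 2. Between the groups the difference was -0.61 (95% interval -2.51 to 1.28, adjusted p = 0.866).

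Apoa1, a neighbour of Apoa4 in the genome, encodes the main protein of high-density lipoprotein. The array annotation gives its probe no position. Its signals were -0.29, -1.46 and -0.89 in the pre-heartbeat group and -0.84, -0.88 and -1.98 in the post-heartbeat group. Slide 1 lay above slide 2 without overlap, although post 2 (-0.88) and pre 3 (-0.89) almost met. The slide difference was -1.0 (SE 0.18, limma adjusted p = 0.0110), the smallest adjusted p of the members, and the group difference was -0.35 (95% interval -1.29 to 0.59, adjusted p = 0.866).

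Apoc2, with its probe at chr1:78979140-78979199, encodes the cofactor that activates lipoprotein lipase. It had signals of 1.17, -0.78 and 0.56 before the heartbeat and of 0.83, 0.62 and -0.71 after it. Here too slide 1 lay above slide 2 without overlap. Slide 2 differed by -1.35 (SE 0.32, limma adjusted p = 0.0278) and the post-heartbeat group by -0.07 (95% interval -1.44 to 1.30, adjusted p = 0.975).

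Apob, with its probe at chr6:31547488-31547547, encodes the scaffold of very-low- and low-density lipoproteins. Its signals were 0.76, 0.00 and 0.33 before the heartbeat and 0.20, 0.16 and -0.37 after it. Only pre 3 of slide 2 reached into the range of slide 1. Its slide difference was -0.57 (SE 0.15, limma adjusted p = 0.0352), the smallest of the 7 that passed, and the group difference was -0.37 (95% interval -0.96 to 0.22, adjusted p = 0.866).

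Among the carriers, Rbp4 (probe at chr1:242443795-242443854) encodes the protein that carries retinol, and its signals were 2.62, 1.38 and 2.30 before the heartbeat and 2.19, 2.14 and 1.27 after it. Pre 2 and post 3 were below the other four arrays. Between the slides it differed by -0.84 (SE 0.24, limma adjusted p = 0.0479) and the group difference -0.23 (95% interval -1.13 to 0.66, adjusted p = 0.876). Afp (probe at chr14:19092583-19092642) encodes alpha-fetoprotein, the albumin-like protein of fetal plasma and a classical product of visceral endoderm. Its signals were 3.16, 0.88 and 2.11 before the heartbeat and 2.32, 2.61 and 1.93 after it. Pre 1 and pre 2, of the same group, were 4.86-fold apart, and the slides did not overlap. The slide difference was -1.10 (SE 0.36), with a limma adjusted p of 0.0753 that missed the threshold of 0.05, and the group difference was 0.24 (95% interval -1.02 to 1.5, adjusted p = 0.905).

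Transthyretin, the carrier of thyroid hormone that also binds the complex of retinol and Rbp4, is encoded by Ttr, whose probe lies at chr18:12413621-12413680. Its signals were 5.01, 5.46 and 5.36 before the heartbeat and 4.63, 4.87 and 4.59 after it. Every post-heartbeat array was below every pre-heartbeat array, with post 2 and pre 1 closest to each other. The means were 5.28 ± 0.24 and 4.70 ± 0.15 (SD, n = 3), and the difference of -0.58 (SE 0.17, 95% interval -0.99 to -0.17), or 1.49-fold, had an unadjusted limma p of 0.0121 and an adjusted p of 0.388. A block for the slide gave -0.54 (adjusted p = 0.254). The slide difference was 0.12 (SE 0.17, adjusted p = 0.654), and Ttr was the 1 member in which this difference, with the group held fixed, was above 0.

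Cer1 was the member with the widest gap between the groups, and its 2 probes agreed in direction. Each of these probes had 1 spot on each array. The brighter probe, at chr5:101756138-101756197 on rn4, had signals of -0.14, -0.25 and -0.96 before the heartbeat and of -1.54, -1.64 and -1.99 after it. The dimmer probe, at chr5:101756959-101757018 and nearer the 5′ end of the transcript, had -1.89, -1.60 and -2.16 before and -3.0, -3.42 and -3.47 after it. On both probes every post-heartbeat array was below every pre-heartbeat array. The difference was -1.27 (SE 0.25) on the brighter and -1.41 (SE 0.21) on the dimmer probe, or 2.41- and 2.66-fold lower. Neither passed the adjusted threshold without a block (limma adjusted p = 0.157 and 0.0788). With the slide as a block, Cer1 was lower in the post-heartbeat group by -1.41 (SE 0.20, limma adjusted p = 0.0195) on the brighter and -1.45 (SE 0.20, adjusted p = 0.0191) on the dimmer probe. Within slide 1 the difference on the brighter probe was -1.45 and within slide 2 it was -1.38. The slide differences of -0.43 and -0.12 did not pass (adjusted p = 0.173 and 0.700).

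**Figure D2:**
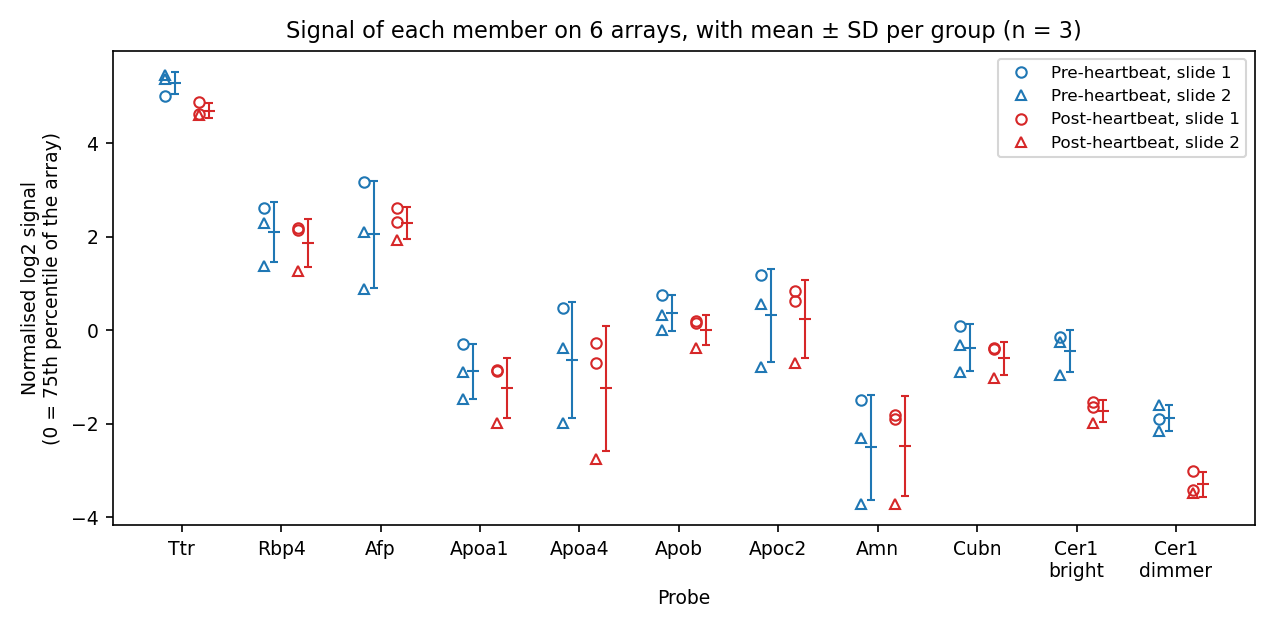
Normalised log2 signal of the 11 probes (vertical axis) in the pre-heartbeat (blue) and post-heartbeat (red) groups, with circles for slide 1, triangles for slide 2 and bars for mean ± SD (n = 3). The groups were apart for Ttr and both probes of Cer1, and overlapped for the other 8 genes.

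Over the 10 members, the comparison of the groups called 0 by limma (2 had an unadjusted p under 0.05, Ttr and Cer1, both lower, as had 3.1% of all probes), beside 0.0207% of 19299 tested probes called lower and 0.119% called higher after the heartbeat. Groups were fully apart for 2 members, both lower, while 6.14% of all probes were lower without overlap. The study selected genes higher after the heartbeat by at least 1.5 fold with a p under 0.05. Used here in both directions, unadjusted, these thresholds held Cer1 among the members and 1.15% of all probes as lower. The 1.49-fold change of Ttr lay just outside them. By exact two-sided permutation of the arrays over their 10 splits, Ttr and Cer1 reached p = 0.1, the smallest the design allows. The median difference of the members was -0.29, beside -0.033 for all tested probes.

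With the slide as a block all 10 members were on average lower after the heartbeat, with a median difference of -0.54 beside -0.017 for all tested probes. Slide 1 held pre 1 as its only pre-heartbeat array, and slide 2 held post 3 as its only post-heartbeat array. The blocked differences thus lean on those arrays. The 8 genes above were highest on pre 1, with post 3 among their lowest 2 arrays. For them the blocked difference is another form of that course. Cer1 was the 1 member called, while 0.461% of all probes were called lower and 1.16% higher. Unadjusted, 6 members had p under 0.05, beside 4.23% of all probes lower at that level. They were Cer1, Apob (difference -0.56, adjusted p = 0.146), Apoa1 (-0.68, adjusted p = 0.150), Apoa4 (-1.27, adjusted p = 0.246), Ttr and Cubn (-0.45, adjusted p = 0.447). Afp had the smallest difference, -0.13 (adjusted p = 1.0). The test of whether the group difference itself differed between the slides called 0 members and 0 of all probes in limma, on 2 residual degrees of freedom, and the lowest unadjusted p of a member was 0.0955, for Ttr.

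Between the slides, with the group held fixed, 7 of the 10 members were called lower on slide 2 and 0 higher, beside 8.75% of all tested probes called lower and 7.57% called higher. The median difference of the members was -0.92, beside 0.069 for all tested probes. Without pre 1 or without post 3, 0 members were called (and 5 without post 2, 3 without post 1), while the calls over all probes fell as well. Without pre 1 the slide difference sets post 3 alone against post 1 and post 2. Without post 3 it sets pre 1 alone against pre 2 and pre 3. The difference on all arrays combines both of these, so they are no separate check of it. They were of like size except for Afp. Amn had -1.86 without pre 1 and -1.52 without post 3, Apoa4 -2.27 and -1.66, and Apoa1 -1.12 and -0.88. Afp, with -1.1 on all arrays, had -0.54 and -1.66. Leaving out both pre 2 and post 3, chosen after the values were seen, left pre 3 alone on slide 2. All 8 genes then had smaller differences, from -0.32 (Rbp4) to -1.05 (Afp), with -0.83 for Amn and -0.86 for Apoa4. Without the group term Amn alone was called, beside 9.73% of all probes. The slides did not overlap for 4 members, Amn, Apoa1, Apoc2 and Afp, while 18.3% of all probes were lower on slide 2 without overlap. The direction was the same in all settings tried for each of the 8 genes. Arrays on a slide share its handling, and the labels do not tell which embryos were processed together, so the slide cannot be told apart from the samples that lay on it.

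**Figure D3:**
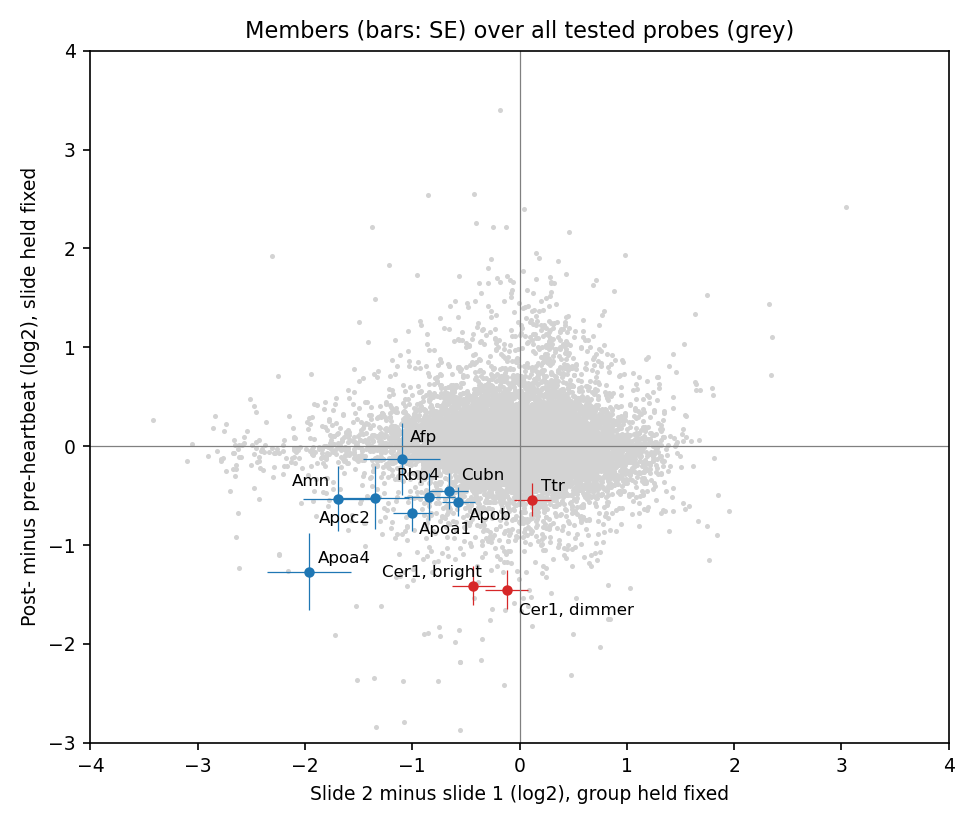
Difference between the slides (horizontal axis, log2) and between the groups (vertical axis, log2), each with the other held fixed, for the members (points with SE bars) and all tested probes (grey, of which 2 lie outside the axes). All points of members lay below 0 on the vertical axis. The 8 genes in blue also lay left of 0, from -0.57 (Apob) to -1.96 (Apoa4). In red, Ttr lay at 0.12 and the probes of Cer1 at -0.43 (brighter) and -0.12 (dimmer) on the horizontal axis.

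Against the tissue label, all 12 cardiomyocyte markers listed, such as Myh6 and Myh7, were tested. Their summed signal, as log2, was 8.66 on pre 1, 9.26 and 9.42 on the other pre-heartbeat arrays and 9.54 to 9.80 on the post-heartbeat arrays (a sum led by Actc1, with 7.02 on pre 1), so the array with the highest signals of the 8 genes had the lowest cardiac sum. The part of this in the members' values was not tested. Post 3 had the highest cardiac sum and the lowest signals of 5 of the 8 genes. Pre 2 had the lowest signals of the other 3. Its cardiac sum of 9.42 was below those of post 1 and post 2, on which the 8 genes had higher signals. Single markers did not all follow the cardiac sum. Nkx2-5 had 1.9 on pre 1 and 1.27 on post 3, and Myh7 was lower on pre 2 (3.83) than on pre 1 (3.89). Myl4 and Ryr2 were lower on post 3 than on post 1 and post 2. In a bulk sample, fewer cells of a type and less RNA per cell cannot be told apart.

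Other genes of the same tissues were followed in lists. Of 10 other apolipoprotein genes 7 were tested, with a median slide difference of -0.25, and 2 were called lower on slide 2 and 0 higher. Apoa2, a second protein of high-density lipoprotein, had signals of -0.04, -2.48 and -1.06 before the heartbeat and -0.63, -1.17 and -2.30 after it, with a slide difference of -1.56 (limma adjusted p = 0.0247). Apoc4, in the same gene cluster as Apoc2, had -0.53 (adjusted p = 0.0348). Apoe, in that cluster too and expressed by many cell types, had a slide difference of -0.25 that did not pass (adjusted p = 0.276), and its signals stayed between 4.13 and 4.67.

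Of 22 other plasma proteins of liver and yolk sac 13 were tested, and 2 were called lower and 1 higher on slide 2, with a median of -0.37. Serpinc1, which encodes antithrombin, was lower on slide 2 with a difference of -1.78 (limma adjusted p = 0.0309), and Tf, which encodes the iron carrier transferrin, with -0.93 (adjusted p = 0.0172), while Kng1, kininogen, had 0.53 (adjusted p = 0.0445). The signal of Serpinc1 was very dim on pre 2 (-6.39), so the size of its difference is uncertain. Alb, Gc and Ttpa were well above background on 0 arrays, albumin being the plasma protein that alpha-fetoprotein resembles. In the list of 22 other visceral and yolk sac epithelial genes 19 were tested, and 4 were called lower and 1 higher on slide 2, with a median of -0.38. Slc2a2, the glucose transporter GLUT2, had signals of -1.69, -5.29 and -3.10 before the heartbeat and -2.43, -3.21 and -5.52 after it, and a slide difference of -2.61 (adjusted p = 0.0155), larger than that of any member. Ihh, a Hedgehog ligand of visceral and gut endoderm, had -0.87 (adjusted p = 0.0163), and with the slide as a block it was lower in the post-heartbeat group by -1.11 (adjusted p = 0.0269). Amot went the other way, with 1.12 (adjusted p = 0.00635). Of the 19 genes 16 had a difference below 0. The summed signal of the list lay between 7.08 and 7.23 on all arrays and was set mostly by its brightest probes, those of Igf2 (6.26 to 6.77) and Cd24 (4.72 to 5.40), named for this reason.

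The machinery that assembles lipoproteins differed less between the slides. Of its 11 tested genes 1 was called, Soat2, which esterifies cholesterol, with a slide difference of -0.74 (limma adjusted p = 0.0405), and the median was -0.12. Of 13 tested partners of cubilin in endocytosis 0 were called between the slides or the groups, and the median slide difference was 0.04. Lrp2, the megalin receptor that works with cubilin, had signals of -0.13, -1.01 and -0.36 before the heartbeat and -1.29, -1.28 and -1.44 after it, a group difference of -0.84 (adjusted p = 0.355) and, with the slide as a block, of -0.95 (adjusted p = 0.0737). Its adaptor Dab2 had -0.65 (adjusted p = 0.163) and -0.61 (adjusted p = 0.0710) in the same fits. On both, every post-heartbeat array was below every pre-heartbeat array. Among 10 tested genes of retinoid handling 3 were called lower on slide 2, namely Aldh1a2 (-1.82, adjusted p = 0.00583), which makes retinoic acid, Stra6 (-1.06, adjusted p = 0.00788), the receptor of Rbp4, and Rdh10 (-0.90, adjusted p = 0.0155), which oxidises retinol. Between the groups, with the slide blocked, 1 gene of this list was called lower, Cyp26a1, which breaks retinoic acid down (-0.82, adjusted p = 0.0310), and 0 higher. It was named after its values had been seen.

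**Figure D4:**
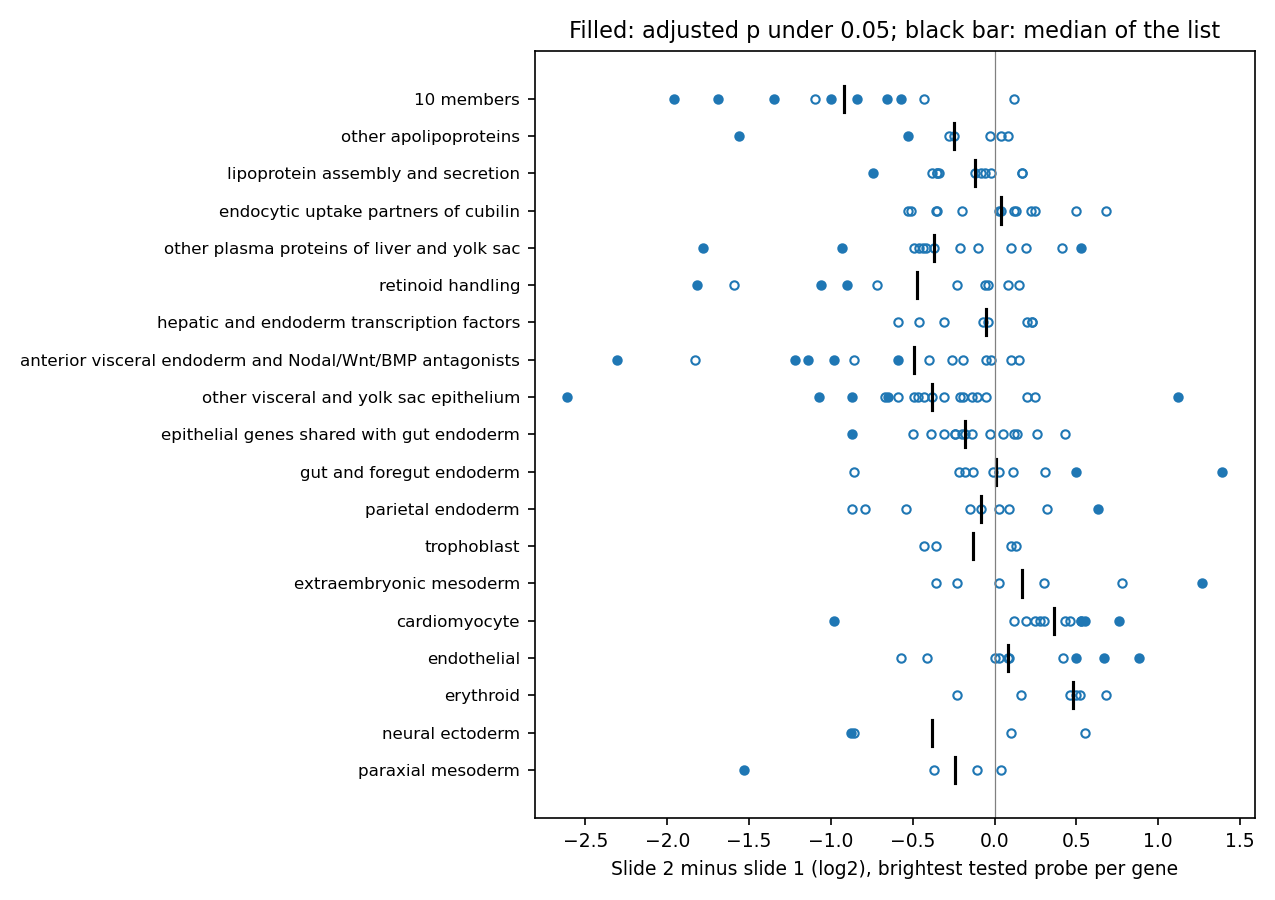
Difference between the slides (horizontal axis, log2, slide 2 minus slide 1) for the members and each tested gene of 18 lists (rows), with filled circles for an adjusted p under 0.05 and a black bar for the median of the row. The members had the lowest median, -0.92, and 7 filled circles left of 0.

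Regulators of these genes in liver and endoderm were mostly dim. Of 17 transcription factors 8 were tested, and 0 were called between the slides or the groups. Cebpa and Ppara were well above background on 0 arrays, and Hnf4a on at most 2. Foxa2, a factor of endoderm and notochord, had signals of 0.24, -0.22 and -0.03 before the heartbeat and -0.07, -0.04 and -0.31 after it, with a slide difference of -0.31 (limma adjusted p = 0.151). Gata4, shared by endoderm and heart, had a slide difference of -0.59 (adjusted p = 0.0925).

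Cer1 was set beside 17 genes of the anterior visceral endoderm and of the antagonists of Nodal, Wnt and BMP, of which 14 were tested. Between the slides 5 were called lower on slide 2 and 0 were called higher. Between the groups, with the slide blocked, 5 were called lower and 2 higher after the heartbeat. Otx2, a homeobox factor of the anterior endoderm and the head, was called lower in both fits, with signals of 2.61, 2.57 and 2.73 before the heartbeat and 1.09, 0.96 and 1.19 after it and a difference of -1.56 (limma adjusted p = 0.0199). The other 4 were Grem1 (-1.89, adjusted p = 0.0299 with the block), a BMP antagonist, and Hesx1 (-1.65, adjusted p = 0.0171), Dkk1 (-0.95, adjusted p = 0.0333) and Gsc (-0.85, adjusted p = 0.0375), which were named after their values had been seen. Hesx1 and Gsc encode homeobox factors of the anterior midline and head, and Dkk1 a Wnt antagonist. The Nodal antagonists Lefty1 and Lefty2 went the other way, by 1.92 (adjusted p = 0.0441) and 1.83 (adjusted p = 0.00705) with the block. Lefty1 was very dim on pre 2 (-6.97) and pre 3 (-6.43), so the size of its difference is uncertain. On Lefty2 every post-heartbeat array was above every pre-heartbeat array.

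The genes whose course over the arrays was nearest to the median course of the members were Tf, Pllp, Slc45a1, Gli1, Dnmt3b, Chga, Vstm2b, Utf1, Tmem119 and Hoxd1. They are the 10 of 12697 other genes with the smallest root mean square distance over the 6 arrays, 0.10 to 0.19 on the log2 scale, where the median of all genes was 0.58. The median course of the members, centred on 0, was 0.82, -0.51 and 0.18 before the heartbeat and 0.18, 0.16 and -0.81 after it. Among the members Apoa1 was nearest to it (0.072) and the dimmer probe of Cer1 farthest (0.78). Apoa4 was at 0.58, close to Ttr at 0.6, while Afp was at 0.43 and Amn at 0.44. Of the 10 nearest other genes Tf alone was on a list of plasma proteins.

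Over the whole array the slide carried more variance than the group. Principal component 1 (60.3% of the variance) parted the slides and component 2 (16.6%) the groups. The 75th percentile of the arrays lay between 1145.76 and 1701.98 intensity units, and its ranges overlapped between the groups.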

How the data were processed

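The arrays were rat 1-colour Agilent designs with cyanine 3-labelled cRNA, quantified by the authors with Agilent Feature Extraction 10.7.3.1 (from the file headers). The values used are the processed signals they deposited, an intensity per spot with the background subtracted and not normalised between arrays. The authors also deposited ratios on a linear scale from GeneSpring (75th percentile shift and a baseline per probe), which were used as an alternative. Control spots and spots marked as outliers were left out, the log2 signal was set against the array's own 75th percentile over its non-control spots, and spots of a probe were averaged. Tested were 19299 of 30367 probes, those above background (Feature Extraction's mark) on each of the 3 arrays of 1 group or both, a probe counting as such on an array when a share of at least 0.5 of its spots did. Of all probes, 59.3% were matched to a current gene name by transcript. Positions of probes are those of the array annotation on rn4. The number of arrays limits the precision.

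Groups were compared with limma 3.58.1 in R 4.3.3 on all 6 arrays, and slides with the group as a term, with Benjamini-Hochberg adjustment over all tested probes and a threshold of 0.05. A gene of several probes was represented by the brightest tested one. Cer1 was added to the members by its transcript. Python 3.11.15 with pandas 2.3.3 and numpy 2.4.6 was used for the rest. The procedure was tested on simulated data, with 100 probes changed 2-fold and 100 changed 4-fold between the groups. The simulated arrays also carried the slide differences fitted to these data, and their noise came from the fit with the slide as a block. A higher recovery with the block was thus built into the simulation. Without a block, 23% of the 2-fold and 89% of the 4-fold changes were recovered, with 0 unchanged probes called. With the slide as a block, 94% and 100% were recovered, with 21 unchanged probes called. These 21 were a larger share of the calls in that fit than the threshold of 0.05 sets. The call of Cer1 with the slide as a block came from a fit of this kind. The members and lists were chosen with earlier results of these data known. The genes named are all members, up to 4 genes per list with the largest difference between the groups or slides, and the 10 genes nearest to the members' median course. Of the methods' selection, 1.5 fold or more with p under 0.05 by Tukey HSD, unadjusted, both directions were used as an alternative. Other alternatives were blocks for slide or replicate number, normexp (offset 50), quantile normalisation, other percentiles and filters, an intensity trend and leaving out arrays.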

Additional observations from a re-analysis of the deposited data

How the results depend on the processing

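Between the groups, 23 probes were called higher and 4 lower in the post-heartbeat group, and 0 members. With the slide as a block the counts were 223 and 89 with 1 member, Cer1 (limma adjusted p = 0.0195). The thresholds of the methods' selection, used in both directions, gave 365 and 222 with 1 member, again Cer1. The methods' test with Benjamini-Hochberg adjustment called 0 and 0 probes, normexp 43 and 7, the intensity trend 38 and 7, and no filter 1 and 0. Quantile normalisation called 11 probes higher, a percentile over the bright probes only 12 and the ratios of the authors 10. Without each array in turn, 0 to 1 probes were higher and 0 to 1 lower. Without both pre 2 and post 3, a choice made after seeing the data, 0 probes and 0 members were called.

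Deviations from the group mean correlated at 0.648, -0.277 and 0.494 for replicate numbers 1, 2 and 3. Every pair on the same slide correlated above 0 and every pair across the slides below 0. Numbers 1 and 3 share a slide and number 2 does not, so these values cannot tell whether the numbers pair the samples. With the replicate block 95 probes were higher and 49 lower and 1 member, Cer1, was called (difference -1.27, adjusted p = 0.0300).

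Group differences of members that turned in sign were all short of the threshold. Afp had -0.13 with the slide as a block and -0.17 without both pre 2 and post 3, and -0.35 to 0.79 without single arrays. Amn had -0.53 with the slide as a block, -0.05 with normexp and -0.01 with quantile normalisation, and -0.57 to 0.65 without single arrays. Without single arrays, Rbp4 had -0.59 to 0.06, Apoc2 -0.62 to 0.41, Cubn -0.50 to 0, Apoa1 -0.64 to 0.02 and Apoa4 -1.28 to 0.14. Ttr, Apob and Cer1 kept a negative difference in all settings.

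Between the slides, 1460 probes were higher and 1688 lower on slide 2, and 7 members. Without single arrays 38 to 1627 were higher, 208 to 2228 lower and 0 to 9 members called. The members were 0 without pre 1 (295 probes higher, 444 lower) and 0 without post 3 (38 and 208), and 3 without post 1 (669 and 801). With no filter 720 probes were higher, 644 lower and 0 members called. Quantile normalisation called 4 members and the fit without the group term 1. Without both pre 2 and post 3, 1 probe was higher, 113 lower and 0 members called. The slide difference of Ttr was -0.16 without pre 1, with 0.40 the highest without a single array, and that of Cer1 was 0.04 without the group term. Over 16 alternatives, the call of a member on slide 2 was lost in between 4 (Amn) and 9 (Cubn), and Afp was called in 5. The 8 genes kept a negative slide difference in all settings. The cause of these changes was not tested.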

Other observations

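Lists of other tissues that a dissected primordium could hold were counted in the same way. Between the slides, with the group held fixed, 1 of 15 tested epithelial genes shared with gut endoderm was called lower and 0 higher, with a median of -0.18 and Cldn7 (-0.87, limma adjusted p = 0.00816) as the gene called. Their summed signal, as log2, was 6.45 to 6.58 on slide 1 and 6.70 to 7.03 on slide 2, a sum set mostly by Krt18 (at most 6.12 on slide 1 and 6.37 to 6.72 on slide 2, named for this reason), while 10 of the 15 genes had a difference below 0. Of 10 tested gut and foregut genes 0 were called lower and 2 higher on slide 2, among them Prox1 (1.39, adjusted p = 0.00821). Prox1 was dim, with signals from -7.16 on pre 1 to -4.95 on post 3, so the size of its difference is uncertain. In a fit with the slide blocked, Nepn, a gene of the foregut and midgut endoderm, was higher in the post-heartbeat group by 0.97 (adjusted p = 0.0250). Of 9 tested genes of parietal endoderm, the other extraembryonic endoderm, 0 were called lower and 1 higher (Nid1, 0.63, adjusted p = 0.0235), and 0 of 4 tested trophoblast genes were called. The placental genes Prl3d1, Prl2c1 and Tpbpa were well above background on 0 arrays.

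Of 6 tested genes of extraembryonic mesoderm 1 was called higher on slide 2, Tbx20 (1.27, limma adjusted p = 0.00435), which the heart also expresses. Among 10 tested endothelial genes 3 were called higher on slide 2 and 0 lower, with Cdh5 at 0.88 (adjusted p = 0.00813). Of 12 cardiomyocyte genes 3 were called higher and 1 lower, Nkx2-5 (-0.98, adjusted p = 0.0145). Of 6 tested erythroid genes 0 were called between the slides. The neural list had 1 of 4 tested genes lower (Zic2, -0.88, adjusted p = 0.0104) and the paraxial mesoderm list 1 of 4 (Foxc2, -1.53, adjusted p = 0.0222).

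Between the groups in that fit, 3 cardiomyocyte genes were called higher and 0 lower, with Myh7 at 1.19 (adjusted p = 0.0223), Myl4 at 1.04 (adjusted p = 0.0324) and Myh6 at 1.06 (adjusted p = 0.0324). In the same fit 1 erythroid gene was called higher, Epor (1.18, adjusted p = 0.0397), 1 neural gene lower, Otx2, which is on 2 lists, and 0 genes of the endothelial, parietal, trophoblast and paraxial mesoderm lists were called.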
